A study of Canis lupus familiaris with 20 samples.

Results

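Muscle RNA of 4 normal dogs was compared with the muscle RNA that served as common reference on every array of the series. The members are the 8 arrays labelled normal, chosen by that label, out of 20 arrays in all. Each of the 4 dogs was hybridised on 2 arrays, once with the dog in Cy5 and the reference in Cy3 and once with the dyes exchanged. The other 12 arrays hold 4 dogs labelled DMD affected and 2 labelled DMD escaper, that is, dogs with Duchenne muscular dystrophy, run against the same reference. All 10 dogs were 2 years old. The labels give total RNA extracted from muscle and name neither the muscle, the breed nor any treatment. The common reference, a single muscle RNA, came from 1 animal that the labels call normal, and they do not say whether that individual is among the 4 dogs, nor its age. Since it is a single RNA, its own spread was not measured. Each p-value below rests only on spread among the 4 dogs, that of the probe itself and that shared over all tested probes.

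A common reference gives every array the same second colour, so that dogs on different arrays can be compared through it. The design is meant to let the reference drop out of comparisons between dogs, and a direct comparison of dogs with reference shows how the reference RNA itself differs from the tissue it stands for. Adult skeletal muscle is made mostly of multinucleated fibres packed with contractile proteins and mitochondria. When fibres are damaged, satellite cells divide and fuse into new fibres, which pass through a stage with embryonic and perinatal isoforms of myosin, actin, troponin and acetylcholine receptor, while macrophages clear debris and fibroblasts lay down matrix.

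Below, a value is the log2 ratio of dog over reference, averaged over the 2 arrays of a dog and then over the 4 dogs. A value above 0 means more signal in the dogs, and −1 means 2-fold more in the reference. Errors are limma's moderated standard errors of the mean over 4 dogs. Limma draws the variance of each probe toward a value shared by all tested probes. An error can therefore differ from what the 4 dogs alone give for that gene. Adjusted p-values rest on these errors, with Benjamini-Hochberg adjustment over all tested probes. A gene is called higher or lower at an adjusted p under 0.05. In bulk tissue, fewer cells of a type and less RNA per cell cannot be told apart.

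Each gene was read by a probe of 60 bases printed on the array, and the findings below turn on what these probes match. The 6 shown here read genes of immature fibres, macrophages and matrix, which were higher in the reference, and a vessel gene (KDR) and a fast-fibre gene (MYBPC2) that were higher in the dogs. They are written 5′ to 3′ as the array files give them, all in lower case because no base is singled out.

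MYH8: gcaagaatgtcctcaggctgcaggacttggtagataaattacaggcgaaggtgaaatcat

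ACTC1: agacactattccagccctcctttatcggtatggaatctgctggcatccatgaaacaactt

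GPNMB: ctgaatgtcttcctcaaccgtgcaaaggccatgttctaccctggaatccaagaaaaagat

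POSTN: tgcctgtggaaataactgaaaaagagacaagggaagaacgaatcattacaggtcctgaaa

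KDR: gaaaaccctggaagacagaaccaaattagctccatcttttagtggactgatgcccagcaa

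MYBPC2: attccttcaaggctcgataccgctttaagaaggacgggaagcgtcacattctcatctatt

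The files place the MYH8 probe at chr5:37691343-37691402 and the MYBPC2 probe at chr1:109164341-109164400, both on the minus strand, and the GPNMB probe at chr14:39904524-39904583 on the plus strand. The other three span more genome than their 60 bases, so each match is interrupted. The ACTC1 probe spans 850 bases at chr30:5504814-5505663 on the minus strand. The POSTN probe spans 794 bases at chr25:6185060-6185853 on the plus strand. The KDR probe spans 1826 bases at chr13:50375162-50376987 on the minus strand. The genome build of these coordinates is not given in the sources used here. In all 6 a forward reading frame without a stop codon runs over the whole probe, which does not by itself show coding sequence. MYH8 and ACTC1 belong to families of near-identical genes, and the longest run that either probe shares with another probe of the array is 13 bases. The probes were not compared with the transcripts of those families, so whether related transcripts bind them was not tested.

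On each array the dogs' RNA gave a signal well above background for 30.5% to 39.8% of 42034 probes, and the reference RNA for 30.5% to 44.0%. Saturated spots numbered 68 to 156 for the dogs and 87 to 180 for the reference. Across tested probes the 2 single arrays of a dog correlated with r between 0.725 and 0.814. Different dogs, each as the mean of 2 arrays, correlated with r between 0.762 and 0.821. A single array and a mean of 2 are unlike measures, so these ranges cannot be set against each other. Both figures are across probes, which are not independent replicates, and all arrays share the reference. The 4 dogs lay on 2 slides that held no other group, normal 1 and 2 on the one and normal 3 and 4 on the other. All of the arrays' columns were used as deposited, with medians over all probes between −0.16 and 0.21. The number of arrays limits the precision of every value.

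The dogs differed from the reference across much of the transcriptome. Of 16764 probes tested, 8010 (47.8%) passed the threshold, 3774 (22.5%) with more signal in the dogs and 4236 (25.3%) with more in the reference. At 2-fold or more 3292 probes (19.6%) passed, 1169 (6.97%) and 2123 (12.7%). With one probe a gene, 3201 of 6490 genes (49.3%) passed, of which 1290 (19.9%) were higher in the dogs and 1911 (29.4%) were higher in the reference. Large differences lay mostly on the reference side. Of 1308 genes (20.2%) called at 2-fold or more, 347 (5.35%) were higher in the dogs and 961 (14.8%) in the reference, and at 4-fold or more 31 and 289. The median over all tested genes was −0.09.

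The imbalance was smaller among bright genes. A gene could enter through either channel, and 280 tested genes were well above background on no dog array, against 14 on no reference array, so their calls follow from the filter in part. When the fit was repeated on the 4394 genes well above background in both channels on all 8 arrays, 2400 (54.6%) passed, of which 1178 (26.8%) were higher in the dogs and 1222 (27.8%) in the reference. At 2-fold or more, 600 (13.7%) passed, 238 (5.42%) and 362 (8.24%). Counts of list members are given below over the tested genes and, for lists with at least 3 such genes, over those bright in both channels, and each can be read against these shares. The lists describe known functions and were chosen with earlier results of these data known, so no count stands as a test of a list.

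**Figure D1:**
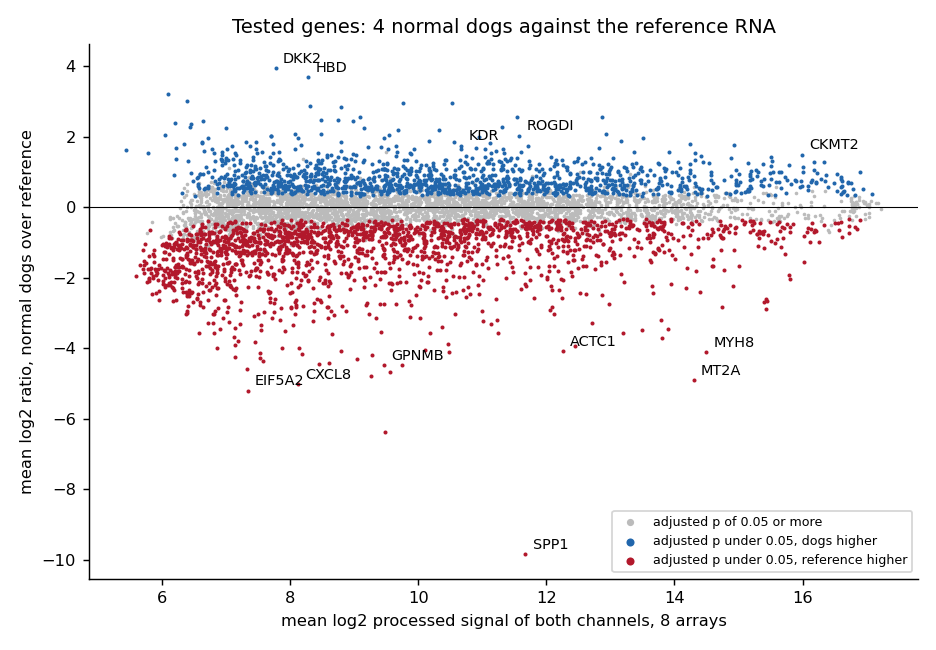
Mean log2 ratio of 4 normal dogs over the reference (vertical axis) against mean log2 processed signal of both channels over 8 arrays (horizontal axis) for 6490 tested genes. Points past an adjusted p of 0.05 are blue where dogs were higher (1290) and red where the reference was higher (1911), and grey points did not pass. SPP1 lies at −9.84 and DKK2 at 3.94.

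The largest difference of all was in SPP1, which encodes osteopontin, a secreted glycoprotein made by macrophages, bone cells and regenerating muscle. The dogs' processed signal ranged from 71 to 183 over 8 arrays with a median of 106, and only 4 of these arrays were well above background. The reference signal ranged from 78410 to 129030 with a median of 96673 and was saturated on all 8 arrays. No dog came near the reference. The log2 ratio was −9.89, −9.96, −9.13 and −10.39 in normal 1 to 4, with a mean of −9.84 ± 0.21 (adjusted p = 6.64e-05). Because of the saturation the difference is a lower bound, and the reference was at least 719.7-fold higher. Such bounds set the mean normalised level of the brighter group against the dimmer group's, or against the lowest level well above background on each array where that is higher.

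SPP1 was the leading member of the osteoclast and bone matrix list, of which 4 of 9 genes on the array could be tested. All 4 were lower in the dogs, with a median of −2.0, and so were the 3 bright in both channels. BGLAP (osteocalcin), COL1A2 and SPARC were the other three. MMP9, ALPL, CALCR, RUNX2 and COL1A1 were too dim to test, as neither channel met the signal minimum for them.

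By list mean, genes of immature and regenerating fibres were lower in all 4 dogs. The list holds 20 genes, 14 were on the array and 11 could be tested, and all 11 were lower in the dogs (median −2.69), as were all 10 that were bright in both channels (median −2.55). The summed signal of the 11 genes was 190310 to 346900 on the dogs' side and 541590 to 771840 on the reference side over the 8 arrays. The ranges do not meet.

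MYH8, the perinatal myosin heavy chain, had a dog signal of 2582 to 8737 (median 5336) and a reference signal of 87040 to 131570 (median 108820). Its log2 ratio was −3.86, −4.37, −3.66 and −4.55 in normal 1 to 4, with a mean of −4.11 ± 0.18 (adjusted p = 0.000114). The reference spot was saturated on 7 arrays, and 2 spots were left out by their flags, so 2 dogs rest on 1 array each. With so many saturated spots this mean is a lower limit of the difference.

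ACTC1, the cardiac actin that immature skeletal fibres also use, showed the tightest agreement among dogs of the genes of this list. Its log2 ratio was −3.99, −4.09, −4.11 and −4.16, with an SD of 0.07. The dog signal was 709 to 2012 and the reference signal 14109 to 24297, with no saturated spot, and the mean was −4.09 ± 0.11 (adjusted p = 6.64e-05). The reference thus had 17-fold more ACTC1 signal than the mean of the dogs.

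Subunits of the acetylcholine receptor that are spread over uninnervated or immature fibres went the same way. CHRNG, the fetal gamma subunit, had a mean of −3.19 ± 0.11 with 4 dogs between −3.35 and −3.08. CHRNA1, the alpha subunit, was well above background on all 8 reference arrays and on no dog array, and the reference was at least 4.42-fold higher. CHRNE, the subunit of mature endplates, was at −0.62, and its adjusted p of 0.0424 became 0.125, 0.113 and 0.143 without normal 1, 3 and 4. TNNT2, the cardiac troponin T of developing muscle, was at −3.23 ± 0.12. The smallest differences of the list were in RRAD (−0.61), CRYAB (−0.69) and IGF2 (−0.70 ± 0.16). The calls of RRAD and CRYAB were lost without normal 2 (adjusted p = 0.0583 and 0.0937) and without normal 3 (0.0703 and 0.115), and that of IGF2 without normal 4 (0.0543).

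ANKRD1, a stress-responsive titin-binding repressor, was also called (−1.67 ± 0.50, adjusted p = 0.0345), with dogs at 0.13, −2.71, −1.30 and −2.82. The call does not outlast leaving out normal 2, 3 or 4, after which the adjusted p was 0.103, 0.0741 and 0.122. Without normal 1 the mean was −2.28.

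Markers of satellite cells and myoblasts were lower in the dogs too. Of 9 on the array 7 were tested, and 6 were lower, with a median of −1.99. Only 3 were bright in both channels, of which 2 were lower, the cell adhesion genes CDH15 (−0.94 ± 0.18) and ITGA7 (−0.67). The adjusted p of ITGA7 was 0.0583 without normal 1 and 0.0597 without normal 2. SDC4, a surface proteoglycan of satellite cells, was lower in all 4 dogs (adjusted p = 0.000116), but its log2 ratio of −3.13 rests on dog signals near background, since 1 of 8 dog arrays was well above it. MYF5, an early myogenic transcription factor, was called lower and was also above background on 1 dog array, and DES, the desmin of all muscle cells, was at 0.02.

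Genes of the cell cycle differed less evenly. Of 18 tested cell cycle genes 12 were lower in the dogs (median −0.97), but 7 of the 18 were above background on no dog array. Of the 8 bright in both channels, 5 were lower and 1 was higher, with a median of −0.41. CDK1, the mitotic kinase, was well above background on all 8 reference arrays and no dog array, with the reference at least 3.31-fold higher. RRM2, a subunit of ribonucleotide reductase, was seen on 6 reference arrays and no dog array, and the reference was at least 1.57-fold higher. CCND2, a cyclin of the first growth phase, was at −1.43.

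Genes of the extracellular matrix were lower in the dogs nearly throughout. Of 20 tested genes 18 were lower and 2 were higher (median −1.71), and all 13 that were bright in both channels were lower (median −1.57). The summed signal was 73506 to 127870 in the dogs and 208840 to 306430 in the reference.

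TIMP1, a secreted inhibitor of metalloproteinases, had a dog signal of 4019 to 5780 and a reference signal of 40265 to 62981. Its log2 ratio was −3.44, −3.53, −3.25 and −3.61 (mean −3.46 ± 0.12, adjusted p = 8.06e-05), and 1 dog rests on 1 array because a spot was flagged. POSTN (periostin), a matricellular protein of active fibroblasts, was seen on all 8 reference arrays and on no dog array. The reference was at least 2.67-fold higher.

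COL1A2, a chain of collagen I, had dogs at −1.83, −2.23, −1.54 and −2.53 (mean −2.03 ± 0.18, adjusted p = 0.000638), with signals of 1580 to 3922 in the dogs and 6664 to 10897 in the reference. CCN2, the connective tissue growth factor, was at −2.94 ± 0.16 and COL5A2 at −2.61 ± 0.19. The 2 exceptions, BGN (0.47) and TIMP3 (0.64), were higher in the dogs, and neither was bright in both channels on all arrays. The adjusted p of BGN, 0.0434, became 0.13, 0.125 and 0.124 without normal 1, 2 and 4.

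Fibroblast markers shared some of these genes. Of 13 tested 10 were lower and 1 was higher (median −1.06), and of 7 bright in both channels 6 were lower. FAP, a surface protease of activated fibroblasts, was called lower and was well above background on 1 dog array, and COL3A1 on 3, so their log2 ratios of −2.96 and −2.72 rest largely on dog signals near background. THY1, a surface glycoprotein, was the marker higher in the dogs, at 0.37 (adjusted p = 0.0311), but its adjusted p lay between 0.069 and 0.0918 whichever dog was left out. The count of lower markers fell to 6 of 13 without normal 2 and also without normal 4. The summed signal of fibroblast markers was 10720 to 29751 in the dogs and 44816 to 68328 in the reference, and how far a different number of fibroblasts bears on the matrix genes was not tested.

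Macrophage and myeloid markers were lower in the dogs in most cases. Of 24 listed, 19 were on the array and 16 were tested, and 14 of these were lower in the dogs (median −2.56) and none was higher. Of the 9 bright in both channels 7 were lower, with a median of −1.85. The summed signal was 18032 to 34925 in the dogs and 79525 to 116200 in the reference. The defining markers CSF1R and SPI1 were too dim in both RNAs to be tested, and so was FCER1G.

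GPNMB, a glycoprotein of lipid-laden macrophages, had dogs at −4.44, −4.84, −4.07 and −4.55. Its mean was −4.47 ± 0.15 (adjusted p = 8.06e-05), and 3 of 8 dog arrays were well above background. CD86, a costimulatory receptor of antigen-presenting cells, was called lower, with a log2 ratio of −4.44 that rests on dog signals near background, as 1 dog array was well above it.

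LGALS3 (galectin-3), which is abundant in activated macrophages, was bright in both channels, with dogs between −4.25 and −3.57 and a mean of −3.93 ± 0.15. CTSB, a lysosomal cathepsin, was at −1.79 ± 0.12. The complement component C1QA, made largely by macrophages, was at −2.49 ± 0.18. TYROBP (−0.18) and CD68 (0.02 ± 0.11) did not pass, so the list did not move as a whole.

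Cytokines, chemokines and complement were lower in the dogs in 13 of 16 tested genes and higher in 1 (median −1.97). Only 6 were bright in both channels, of which 4 were lower and 1 was higher. CXCL8 (interleukin-8), which draws neutrophils, was seen on all 8 reference arrays and no dog array, and the reference was at least 13.0-fold higher. CXCL14, a chemokine of connective tissue and epithelium, had dogs at −5.14, −4.79, −3.28 and −4.71 (mean −4.48 ± 0.31, adjusted p = 0.000303), with 4 dog arrays above background. CCL2, which attracts monocytes, was at −3.59 ± 0.43. TNF, the inflammatory cytokine, was the member higher in the dogs, at 0.62 (adjusted p = 0.0231, but 0.0765 without normal 1 and 0.0838 without normal 4).

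**Figure D2:**
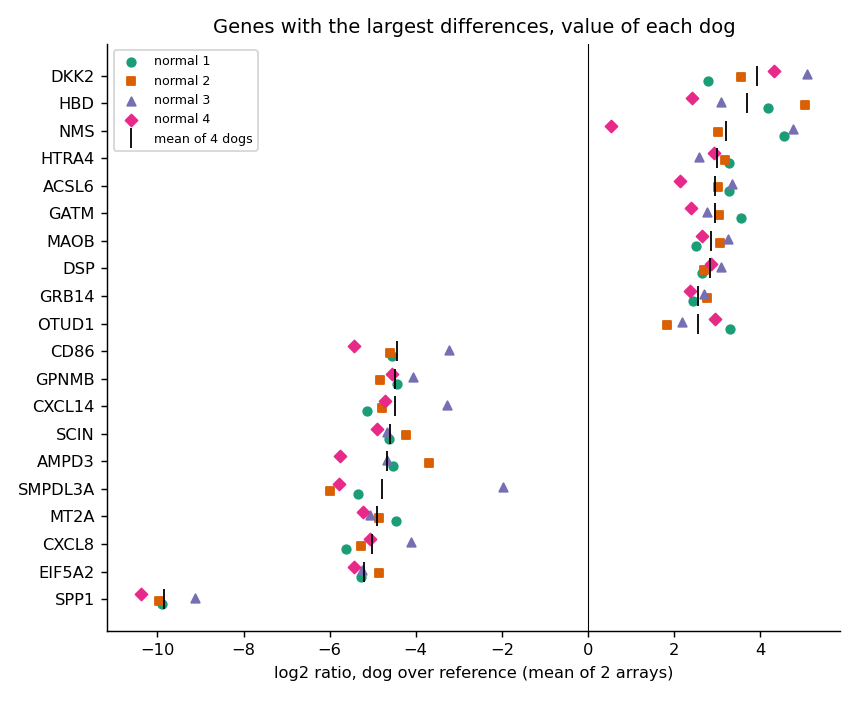
Log2 ratio of each of the 4 normal dogs over the reference (horizontal axis, mean of 2 arrays) for the 10 genes with the largest differences in each direction among called genes with the same sign on all 8 arrays (vertical axis). Black bars are the means of 4 dogs. Normal 3 lies apart in SMPDL3A, at −1.97. EIF5A2, CXCL8 and SCIN were above background on no dog array, NMS and HTRA4 on no reference array, and SPP1 was saturated in the reference, so their points show direction and not size.

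The other large differences on the reference side came from genes of mixed function. EIF5A2, an isoform of a translation factor, was seen on 8 reference arrays and no dog array, with the reference at least 7.99-fold higher. SCIN, an actin-severing protein, had the same detection and a bound of 6.43-fold. AMPD3, the AMP deaminase of red cells, had dogs at −4.53, −3.70, −4.66 and −5.76 (mean −4.66 ± 0.32). SMPDL3A, a secreted phosphodiesterase of macrophages, had a mean of −4.77 ± 0.67 that rested unevenly on the dogs, since normal 3 was at −1.97 and the other dogs between −5.99 and −5.35. Without normal 3 its mean was −5.71. The dog signal of SMPDL3A was 33 to 108 in normal 1, 2 and 4 against 829 to 840 in normal 3. The size of the ratios in normal 1, 2 and 4 thus rests on low dog signals. BIRC3, an inhibitor of apoptosis, falls outside the rule for named genes because only 7 of its arrays could be used, and was added after its values were seen. Its dogs were at −6.37, −6.82, −5.43 and −6.91.

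Metallothioneins and genes that glucocorticoids induce were lower in the dogs in 9 of 14 tested genes and higher in 2 (median −1.27). Of 12 bright in both channels, 8 were lower and 2 higher. MT2A, a metal-binding protein that many stresses induce, had a dog signal of 1936 to 6587 and a reference signal of 74816 to 146010, saturated on 4 arrays. Its dogs were at −4.45, −4.86, −5.05 and −5.22 (mean −4.90 ± 0.16, adjusted p = 8.04e-05). MT1E was at −2.18, −3.92, −4.56 and −4.13, with normal 1 the highest. FKBP5, a chaperone of the glucocorticoid receptor, was at −2.93 ± 0.22, whereas SGK1 (0.75) and DUSP1 (0.93) were higher in the dogs. The adjusted p of SGK1, 0.0438, became 0.0685, 0.0855 and 0.104 without normal 1, 3 and 4.

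Immediate early genes, which answer a stimulus within minutes, were split, with 5 of 13 lower and 3 higher in the dogs, and 4 and 3 of 11 bright in both channels. Their median was 0.16, while the list mean was below 0 in every dog, between −0.84 and −0.04. GADD45B, a stress-induced growth regulator, was at −3.48 ± 0.14. EGR1, a zinc-finger transcription factor, had dogs at −1.62, −3.97, −3.05 and −2.62. FOS, a subunit of the AP-1 factor, was higher, at 1.38 ± 0.39 (adjusted p = 0.0291, but 0.0949, 0.0636 and 0.105 without normal 1, 2 and 4).

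Hypoxia-responsive genes were lower in 8 of 13 tested and higher in 1 (median −0.88), and lower in 5 of 8 bright in both channels. ADM, a vasodilator peptide, was at −2.84 ± 0.18. SLC2A1, the ubiquitous glucose transporter, was seen on no dog array, and the reference was at least 2.56-fold higher. VEGFA, the vessel growth factor, was the member higher in the dogs, at 0.63 ± 0.13.

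Atrophy and autophagy genes were lower in 6 of 10 and higher in 1 (median −0.85), with the same counts among 9 bright in both channels. The higher call was lost without normal 2, 3 or 4. FOXO1, the transcription factor that drives them in wasting muscle, had dogs at −2.19, −1.62, −1.97 and −2.47 (mean −2.06 ± 0.16). DDIT4, an inhibitor of the growth kinase mTOR, was seen on no dog array, and the reference was at least 2.56-fold higher. The main atrophy ligases FBXO32 and TRIM63 were not matched to a probe here.

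Heat shock proteins and chaperones were lower in 7 of 14 and higher in none (median −0.66), and among those bright in both channels, refitted, lower in 8 of 14 and higher in 1. They were led by HSPA5, the chaperone of the endoplasmic reticulum, at −1.67 ± 0.13. HSPB7, a small muscle chaperone, was at −0.90 ± 0.14. The count of lower genes was 4 of 14 without normal 2 and also without normal 3. HSPA1A and HSPA1B of this list were not matched to a probe. The chaperone HSP70 lies outside the list, did not pass, and is given below among the genes of large spread.

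Cytosolic ribosomal proteins differed little but in one direction. Of 21 tested, 12 were lower in the dogs and none was higher, with a median of −0.35, and 14 of 20 bright in both channels were lower. RPL3, a core protein of the large subunit, stood far below the rest, with dogs at −2.81, −2.87, −2.68 and −3.20 (mean −2.89 ± 0.13, adjusted p = 0.000117). Its dog signal was 13329 to 19300 and its reference signal 100630 to 131260, saturated on 4 arrays. The next was RPL8, at −0.80 ± 0.12. Without normal 2, 3 or 4 the count of lower genes was 7 in each case.

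**Figure D3:**
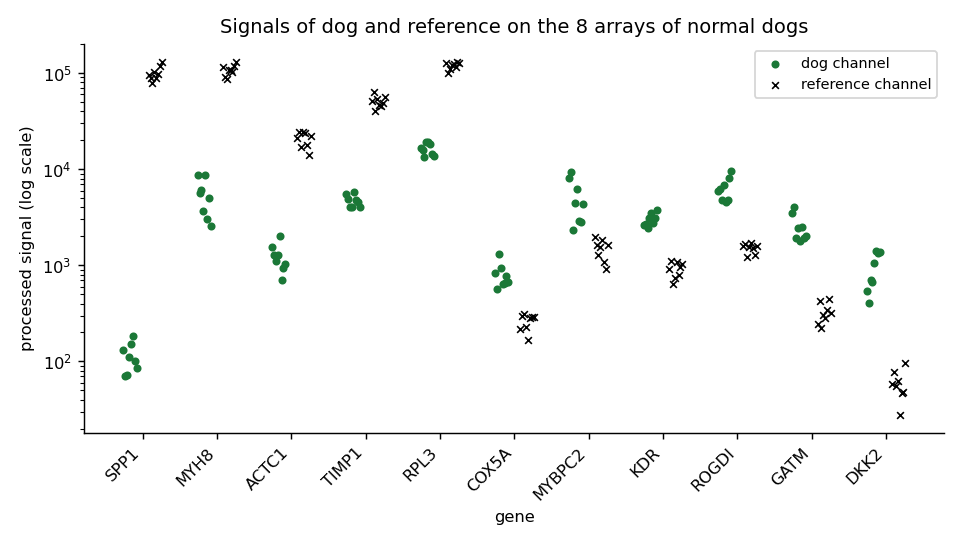
Processed signal (vertical axis, log scale) of the dog channel (green points) and the reference channel (black crosses) on the 8 arrays of normal dogs for 11 named genes. The ranges of the 2 channels do not overlap for SPP1 (71 to 183 against 78410 to 129030) or for KDR (2422 to 3786 against 640 to 1098).

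On the dogs' side, the largest group was the mitochondrial respiratory chain. Of 32 tested genes of oxidative phosphorylation, 25 were higher in the dogs and none was lower, with a median of 0.75. Of the 31 bright in both channels 24 were higher. The summed signal was 1668200 to 2271200 in the dogs and 1124100 to 1520600 in the reference, and the list mean was 0.65, 0.52, 0.68 and 0.90 in normal 1 to 4. The differences were moderate, and 7 of the 25 reached 2-fold. The calls of NDUFV2 (0.34) and NDUFB8 (0.35) were lost whichever dog was left out. Those of COX4I1, NDUFA9, COX8A, SDHC and NDUFV1 were lost without normal 4 (adjusted p = 0.0857, 0.0893, 0.151, 0.0735 and 0.0528) and also without a further dog.

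COX5A, a subunit of cytochrome c oxidase, had a dog signal of 567 to 1302 and a reference signal of 168 to 308. Its log2 ratio was 1.44, 2.06, 1.58 and 1.30 (mean 1.59 ± 0.16, adjusted p = 0.000793). NDUFA4, another subunit of this enzyme, was at 1.63, 1.32, 1.05 and 2.11 (mean 1.53 ± 0.19). ATP5MC1, of the ATP synthase rotor, was at 1.15 ± 0.12, and SDHD, an anchor of succinate dehydrogenase, at 1.01 ± 0.18. UQCRC2 (0.06) and ATP5F1B (−0.02) did not pass.

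Fatty acid oxidation and the TCA cycle went the same way with less force, with 9 of 20 genes higher and 1 lower (median 0.30), and 9 and 1 of 19 bright in both channels. The members with the largest differences belong to the cycle. IDH3A, the catalytic subunit of isocitrate dehydrogenase, had dogs at 1.27, 1.27, 1.35 and 1.21, with the dog spot saturated on 7 arrays. SUCLA2, of succinyl-CoA synthetase, was at 1.23 ± 0.12. CPT1B, which admits fatty acids to mitochondria in muscle, was the member lower in the dogs, at −0.74, and 2 members were lower without normal 4.

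Genes of calcium handling and excitation were higher in 8 of 17 and lower in 3 (median 0.66), and among 12 bright in both channels 8 were higher and 1 lower. CLCN1, the chloride channel that steadies the fibre membrane, was at 1.39 ± 0.14. TRDN (triadin), of the calcium release complex, was at 1.29 ± 0.14, JPH1, which ties the reticulum to the tubules, at 1.22 ± 0.14, and RYR1, the release channel itself, at 0.80 ± 0.12. CASQ2, the calsequestrin of slow and cardiac muscle, was lower, with dogs at −3.40, −3.93, −2.52 and −1.56 and 4 dog arrays above background. CHRNA1 and CHRNE were the other two.

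Glycolysis and glycogen genes were divided, with 4 of 16 higher and 4 lower (median 0.13), and 4 and 3 of 14 bright in both channels. Among the higher ones PHKB, of phosphorylase kinase, was at 1.31 ± 0.15. PFKM, the muscle phosphofructokinase, was at 1.28 ± 0.12. HK2, the hexokinase of muscle and fat, was lower, with dogs at −1.76, −2.41, −2.22 and −1.57.

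The muscle label held for both RNAs. All 14 tested markers of skeletal fibres were well above background in both channels on all 8 arrays, with a summed signal of 789040 to 1279700 in the dogs and 773290 to 994000 in the reference. Only 4 of the 14 passed the test, 3 higher in the dogs and 1 lower (median 0.13), against 4 and 1 when only genes bright in both channels were fitted. CKMT2, the mitochondrial creatine kinase, had a dog signal of 76409 to 161830 and a reference signal of 28803 to 43129, and a mean of 1.48 ± 0.15. MB (myoglobin) was at 1.04 ± 0.25, with an adjusted p of 0.0162 that became 0.0598 without normal 3 and 0.0528 without normal 4. TCAP (telethonin), a cap of titin, was lower (−1.16 ± 0.29, adjusted p = 0.019), but its adjusted p was 0.0653 without normal 1. Without normal 2 the count of markers higher in the dogs was 6.

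Fast-fibre genes were higher in 2 of 11 and lower in none (median 0.13). Fitted with genes bright in both channels alone, 4 of 11 were higher, as without normal 2, and without normal 3 there was 1 lower. MYBPC2, the fast myosin-binding protein C, had dogs at 2.28, 1.18, 1.61 and 1.53 (mean 1.65 ± 0.19, adjusted p = 0.00134). Slow-fibre genes were higher in 1 of 10 and lower in 4 (median −0.26), and 1 and 4 of 9 bright in both channels (median 0.19). MYOZ2, a Z-disc protein of slow and cardiac muscle, had dogs at −3.06, −1.59, −2.47 and −1.60, and LMCD1 was at −1.73 ± 0.22. MYH7, the slow myosin itself, was higher in the mean (0.82 ± 0.23) with normal 1 at −0.05, and its adjusted p of 0.0282 became 0.0857, 0.1 and 0.101 without normal 2, 3 and 4. The slow and fast lists thus did not move as blocks.

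The genes with the largest differences in favour of the dogs came from no single list. DKK2, a secreted Wnt antagonist, had a dog signal of 409 to 1416 against 28 to 95 in the reference, which was above background on 2 arrays. Its log2 ratio was 2.79, 3.55, 5.09 and 4.32 (mean 3.94 ± 0.36, adjusted p = 0.000669). The size of this ratio, and its place as the largest, rests on reference signals near background. HBD, a beta-like globin, had dogs at 4.19, 5.03, 3.1 and 2.42, with the reference above background on 4 arrays.

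ACSL6, which activates long-chain fatty acids, had dogs at 3.28, 3.02, 3.34 and 2.15 (mean 2.95 ± 0.22), with signals of 2582 to 6484 against 281 to 832. GATM, the first enzyme of creatine synthesis, was at 3.55, 3.05, 2.78 and 2.39 (mean 2.94 ± 0.20), with signals of 1782 to 4035 against 221 to 445. Both were bright in both channels, and no dog overlapped the reference.

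MAOB, a mitochondrial amine oxidase, was at 2.87 ± 0.16 with the reference above background on 4 arrays. GRB14, an adaptor that dampens insulin signalling, was at 2.57 ± 0.13, and OTUD1, a deubiquitinase, at 2.56 ± 0.26. HTRA4, a serine protease, was on all 8 dog arrays and no reference array, and the dogs were at least 2.61-fold higher. NMS, a neuropeptide, was on 6 dog arrays and no reference array with a bound of 2.32-fold.

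Other cell types gave small or mixed differences. Among 9 endothelial genes, KDR, the main VEGF receptor, was higher in the dogs at 1.39, 2.01, 1.75 and 1.80 (mean 1.74 ± 0.14, adjusted p = 0.000428), while CLDN5, a tight-junction protein, was lower (−0.85 ± 0.12). The remaining endothelial genes did not pass, PECAM1 among them at −0.24 ± 0.14, and the list median was −0.05, with 1 higher and 1 lower of 8 bright in both channels. Smooth muscle and pericyte genes were higher in 2 of 8 and lower in 2, with the same counts among 6 bright in both channels. Each count was 1 without normal 3 or normal 4, and the lower count also without normal 2. ACTG2, the enteric actin, was at 1.20 ± 0.17 and TAGLN (transgelin) at −0.76 ± 0.21. TAGLN's adjusted p of 0.0277 became 0.0855, 0.0632 and 0.0963 without normal 2, 3 and 4.

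Adipocyte genes were higher in 2 of 10 and lower in 3, and 2 and 1 of 5 bright in both channels. Their median was 0.34, whereas the list mean was below 0 in 3 of 4 dogs. CFD (adipsin) was lower, at −1.11 ± 0.19, and PCK1, of glyceroneogenesis, was on no dog array, with the reference at least 1.27-fold higher. ADIPOQ (adiponectin), at 1.10, did not pass.

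Lymphocyte genes were mostly too dim. Of 12 T and NK cell genes on the array 4 were tested, and CD3E, CD3D, CD3G, CD4 and CD8A were not. CCL5, a T cell chemokine, was on no dog array with a bound of 1.57-fold, and its adjusted p of 0.0175 became 0.0549 without normal 1 and 0.0694 without normal 4. IL7R, a receptor of resting T cells, was at −1.03 ± 0.19, and NKG7, a granule protein of killer cells, was higher, at 0.60. IL7R was dim, with a dog signal of 37 to 179 and a reference signal of 135 to 238. The adjusted p of NKG7, 0.0254, became 0.068, 0.0549 and 0.0835 without normal 1, 3 and 4. Of 2 tested B and plasma cell genes, JCHAIN, which joins secreted antibodies, was higher (1.25 ± 0.18, with 1 dog resting on 1 array), and XBP1, the secretory factor of plasma cells, was lower (−1.12 ± 0.12).

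Of 4 neutrophil and mast cell genes, S100A8, a calcium-binding alarmin, was lower (−2.74 ± 0.30) and CAMP, an antimicrobial peptide, higher (0.93 ± 0.27, adjusted p = 0.0327). CAMP's adjusted p was 0.0895, 0.0974 and 0.116 without normal 1, 2 and 4, and without normal 3 the list had 2 higher genes. CA1, the only gene of the red cell list that was tested, did not pass (−0.34 ± 0.24). Outside that list, the globin HBD was higher and AMPD3 lower in the dogs, as given above. PMP22, a myelin protein that fibroblasts also make, was lower (−1.34 ± 0.20), and MBP and SOX10 were too dim to test.

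Among epithelial genes DSP (desmoplakin) had dogs at 2.64, 2.70, 3.1 and 2.87 (mean 2.83 ± 0.13), and CDH1 (E-cadherin) was at 0.44 ± 0.12. The adjusted p of CDH1 was 0.0228, and 0.0735, 0.0886 and 0.0657 without normal 1, 3 and 4. The keratins KRT14, KRT1 and KRT10 were too dim to test. THBS4, a tendon and muscle matrix protein, was the one called gene of 3 in the chondrocyte and tendon list, at −1.73 ± 0.14, and 2 were lower without normal 3.

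Interferon-response and antigen-presentation genes were lower in 8 of 18 and higher in 1 (median −0.47), and lower in 5 and higher in 1 of 11 bright in both channels. The higher call was lost without normal 1, 2 or 3. Among the lower genes, the calls of TAP2 (−0.50) and DLA-12 (−0.45) were lost whichever dog was left out. Their adjusted p then lay between 0.0554 and 0.0874 for TAP2 and between 0.0505 and 0.0953 for DLA-12. DLA-DRA, the alpha chain of a class II molecule, had dogs at −2.90, −2.16, −0.82 and −3.47. IFI6, an interferon-induced membrane protein, had dogs at −2.88, −1.79, −1.87 and −1.73. The class I light chain B2M was at −0.02 and did not pass.

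Of 5 clock genes, RORA and NFIL3 were lower and BHLHE41 (0.83) was higher, and of 3 bright in both channels 2 were lower and 1 higher. NFIL3 was at −1.83 ± 0.26, and RORA was on no dog array, with the reference at least 2.22-fold higher. Of 4 sex-linked genes KDM5C was called (0.52 ± 0.12, adjusted p = 0.0134), and its adjusted p was 0.0588 without normal 3. All 4 were bright in both channels, and fitted so 1 was higher and 1 lower. Of 8 genes that mark body position of muscle, 4 were lower, among them EYA4 (−0.85 ± 0.21). The count was 2 without normal 3 and 1 without normal 4, and no position gene bright in both channels passed. EYA4's adjusted p of 0.0198 became 0.0542, 0.0729 and 0.0779 without normal 2, 3 and 4.

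In the complex that links dystrophin to the membrane, 2 of 11 genes were higher in the dogs and 3 were lower (median −0.43), and 1 was higher and 4 lower of 8 bright in both channels. Without normal 3 the higher count was 1. ANXA1, a membrane repair protein, was at −2.73, −3.46, −2.59 and −3.39 (mean −3.04 ± 0.19), and SNTB2, a syntrophin, at −1.59 ± 0.21. DMD itself, which encodes dystrophin, had a low signal of 143 to 350 in the dogs and 97 to 229 in the reference. Its log2 ratio was 0.31, 0.79, 0.61 and 0.08 (mean 0.45 ± 0.15, adjusted p = 0.0529), which did not pass. Without normal 4 the mean was 0.57 (adjusted p = 0.0461). With the dog in Cy5 the DMD mean was 0.04 and with the dog in Cy3 0.86.

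Of the other genes discussed in connection with this disease, LTBP4, which binds latent TGF-beta, did not pass (−0.20 ± 0.12, adjusted p = 0.213), and a pair of probes for it had opposite signs. ROGDI, a gene of poorly known function, was higher in all 4 dogs, at 1.90, 2.06, 1.54 and 2.61 (mean 2.03 ± 0.19, adjusted p = 0.000682), with a signal of 4511 to 9490 against 1211 to 1703. On the 8 arrays of normal dogs UTRN and JAG1 were well above background in neither channel, and MSTN (myostatin) on 2 dog arrays and no reference array, so none of these was tested.

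The dystrophic dogs were measured against the same reference, so their values share it and are given side by side without a test. The median of the regeneration list was −2.69 in normal, −0.86 in affected and −0.71 in escaper dogs. That of the macrophage list was −2.56, −1.0 and −0.05, and that of the matrix list −1.71, −0.34 and 0.46. For these last lists the escaper medians come from the mean of a pair of dogs on opposite sides of the reference, with macrophage list means of −1.62 and 1.39 and matrix list means of −0.83 and 1.73. By list mean, each normal dog lay farther below the reference than each affected or escaper dog for the regeneration list (normal at most −2.28, the others at least −1.69) and the macrophage list (at most −2.22 and at least −1.71). For the matrix list the ranges overlapped, with normal 3 at −1.36 and affected 1 at −1.46. The highest affected dog in each of these lists was affected 4, at −0.12 for regeneration, −0.17 for macrophage and 0.59 for matrix genes. Its Cy5 array stood apart, with 60.2% of probes well above background in the dog channel, against 35.0% on its Cy3 array. How far this bears on its values was not tested.

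Single genes are given as group means. SPP1 had a mean of −9.84 in normal, −3.87 in affected and −3.20 in escaper dogs. ACTC1 was at −4.09, −0.73 and 0.44, and MYH8 at −4.11, −0.86 and −0.83. The escapers differed from each other in all 3 genes, at −4.98 and −1.43 for SPP1, −0.69 and 1.57 for ACTC1, and 0.55 and −2.22 for MYH8. The reference spots of SPP1 and most of those of MYH8 in the normal dogs' arrays were saturated.

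On the dogs' side the median of oxidative phosphorylation was 0.75 in normal, −0.23 in affected and −0.63 in escaper dogs, and that of calcium handling 0.66, −0.17 and −0.78. Affected 1 and escaper 2 were the lowest dogs in both. The list mean of oxidative phosphorylation was −0.97 in affected 1 and −1.60 in escaper 2, while the other dystrophic dogs lay between −0.10 and 0.35 and the normal dogs between 0.52 and 0.90. For calcium handling affected 1 and escaper 2 were at −1.52 and −1.53, and the other dystrophic dogs, at 0.27 to 0.53, overlapped the normal dogs, at 0.09 to 0.28. The means of ROGDI were 2.03, −0.65 and −0.75, and those of ACSL6 2.95, −0.46 and −0.84, with escapers at 1.93 and −3.61. KDR was at 1.74, 0.26 and 1.54, and DKK2 at 3.94, 2.13 and 3.89, so these did not follow one order. Affected 1 and escaper 2 also stood apart in fibre markers, with a list mean of −1.95 and −2.54, while the other 8 dogs lay between −0.06 and 0.42.

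The median SD over the normal dogs was 0.29 over the tested genes, while the median size of the difference from the reference was 0.46. Over probes the median SD was 0.30, and the median size of the gap between the Cy5 array and the Cy3 array of a dog was 0.43. An SD of dog means and a gap between single arrays are unlike measures. How much of the SD is difference between animals was not tested. All 4 dogs had the same sign in 4129 of 6490 genes (63.6%). The 8 genes with the largest spread among those bright in both channels were PSMB9, FHL2, PPP1R3C, ATF3, ABRA, PVALB, ANKRD1 and HSP70.

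**Figure D4:**
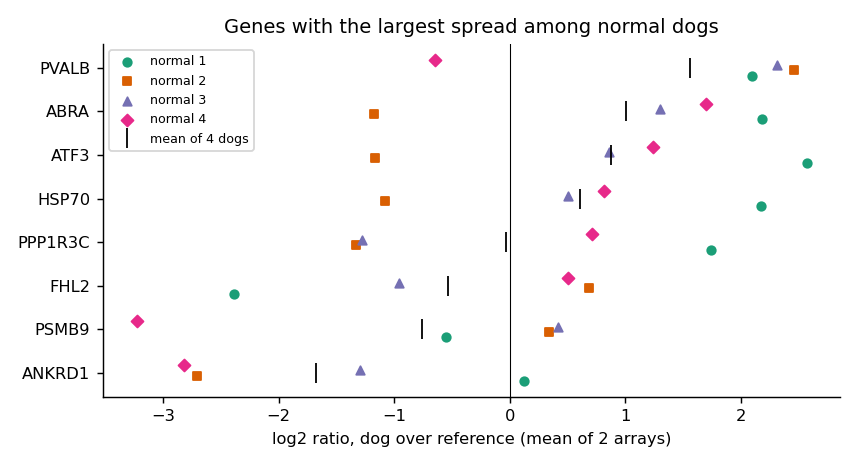
Log2 ratio of each normal dog over the reference (horizontal axis, mean of 2 arrays) for the 8 genes with the largest SD over dogs among genes bright in both channels (vertical axis). Black bars are means of 4 dogs. Normal 2 is the lowest in ATF3 (−1.16), ABRA (−1.18) and HSP70 (−1.07), and normal 4 the lowest in PVALB (−0.65) and PSMB9 (−3.23).

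Normal 2 was the lowest dog in ATF3, ABRA and HSP70. ATF3, a stress-induced transcription factor, was at 2.57, −1.16, 0.86 and 1.24 in normal 1 to 4. ABRA, an actin-binding protein of striated muscle, was at 2.19, −1.18, 1.30 and 1.70, and the chaperone HSP70 at 2.18, −1.07, 0.50 and 0.82. None of these passed with 4 dogs (adjusted p = 0.234, 0.169 and 0.335), while without normal 2 the means were 1.56, 1.73 and 1.17 (adjusted p = 0.0198, 0.00343 and 0.0441).

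The other genes of large spread set other dogs apart. PVALB (parvalbumin), a calcium buffer of fast fibres, was at 2.10, 2.46 and 2.32 in normal 1 to 3 and −0.65 in normal 4 (adjusted p = 0.0527). Without normal 4 its mean was 2.29 (adjusted p = 0.00222). PSMB9, an immunoproteasome subunit, was at −0.55, 0.34, 0.42 and −3.23. FHL2, a LIM-domain protein of heart and muscle, was at −2.38, 0.68, −0.95 and 0.50, and PPP1R3C, which targets a phosphatase to glycogen, at 1.74, −1.33, −1.28 and 0.72. The dogs' signal for PVALB ranged from 172 to 3506, and the reference signal from 216 to 554.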

How the data were processed

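Agilent canine arrays with 2 colours were quantified by the authors with Feature Extraction. According to its parameters, the deposited processed intensity of a channel is corrected for background and spatial trend and its dye bias is removed (linear, then LOWESS). Columns of the deposited value table are log2 values that equal the log2 ratio of dog over reference processed intensities (r = 1), with swapped arrays already turned, and why its columns are uncentred is not known. Flagged spots were left out. A probe was tested if the dog or the reference channel stood well above background on at least 4 of 8 arrays (16842 probes) and had a value in each dog (16764), of which 1103 have a dog resting on 1 array. The 2 arrays of a dog were averaged and the mean of 4 dogs tested against 0, two-sided, with limma 3.58.1 in R 4.3.3, after a check on simulated data. All labelled dogs were taken as separate animals.

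Symbols were updated through a table of assembly UU_Cfam_GSD_1.0: 12287 of 42034 probes have a symbol (10425 symbols, 702 probes with the file's own), and 29747 are unnamed. The probe with the highest mean signal stands for a gene, and 215 of 1052 genes with over 1 tested probe have probes of opposite sign. The genes, members and lists were chosen with earlier results of these data known. Named genes are the 10 largest called differences each way with the same sign on all 8 arrays, the 2 largest called members of each list (or the member with the smallest p where none was called), the 8 genes of largest spread, and DMD, UTRN, SPP1, LTBP4, MSTN, ROGDI and JAG1. Some genes that this rule names are not reported here. Other members are examples chosen after their values were seen. Alternatives changed background correction, centring, filter, saturated probes, slide block, dye, moderation, pooling of groups and the dogs included.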

Additional observations from a re-analysis of the deposited data

Results flagged for a closer look

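Among 123 groups of 4 normal dogs, 7 held a dog far from the other three by Dixon's 95% criterion, and chance alone gives about 1 in 20. SMPDL3A was at −1.97 in normal 3, against −5.35, −5.99 and −5.79 in normal 1, 2 and 4, where the dog signal was low. GADD45B was at −3.08 in normal 1, against −3.64, −3.56 and −3.63. IFI6 was at −2.88 in normal 1, against −1.79, −1.87 and −1.73. IL7R was at −0.33 in normal 3, against −1.22, −1.32 and −1.25. Its signals were dim and single arrays disagreed. In normal 2 the dog and reference signals were 122 and 135 with the dog in Cy5, and 42 and 238 with it in Cy3. PVALB was at −0.65 in normal 4, the one dog below the reference, against 2.10, 2.46 and 2.32. The mean of the 3 chondrocyte and tendon genes was 0.52 in normal 3, against −0.83, −1.04 and −0.93. The mean of the 20 genes of fatty acid oxidation and the TCA cycle was 0.57 in normal 4, against 0.16, 0.20 and 0.23.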

How the results depend on the processing

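No probe called both in the comparison as reported and in an alternative changed sign in any alternative run. Alternatives in filter, saturated probes, moderation, slide block or pooling of groups keep the same mean, so their signs were fixed in advance. Runs without a dog or with the dog in Cy5 or Cy3 alone reuse part of the same values. With all 10 dogs in 1 fit, 4799 probes were called, 12% of those tested higher in the dogs (22.5% as reported) and 2789 probes in the reference, and called genes fell from 25 to 9 in oxidative phosphorylation, from 9 to 3 in fatty acid oxidation and from 8 to 2 in calcium handling on the dogs' side. COL3A1, CKMT2, MYBPC2, PFKM and GRB14 were among the named genes that did not pass there. With both channels above background on all 8 arrays, 2531 probes were higher in the reference, and at 2-fold or more 733 in the dogs and 748 in the reference. With normexp and loess, 346 and 683 reached 2-fold, and DKK2 was 1.32, COX5A 0.71 and SPP1 −7.55. This setting changes background correction and normalisation together, and the cause was not tested. The share of calls that were higher in the dogs was 47.1%, and 41.4% to 55.3% over these 2 settings. With the slide as a random block 9911 were called. Leaving out each dog in turn gave 6113 to 6803 calls, 16.1% to 18.9% of probes higher in the dogs and 3391 to 3717 probes in the reference, and 1112 to 1195 and 2018 to 2207 at 2-fold.

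Some genes that did not pass and some list medians changed sign. Leaving out a dog moved PSMB9 between −1.1465 (without normal 3) and 0.0705 (without normal 4), FHL2 between −0.9438 (normal 2) and 0.0779 (normal 1), and PPP1R3C between −0.6289 (normal 1) and 0.3949 (normal 2), with 0.3782 without normal 3. With the dog in Cy5 alone CA1 was 0.16 and LTBP4 0.15, and the medians of the slow fibre and chondrocyte lists 0.17 and 0.0227. With the dog in Cy3 alone the medians were 0.0344 for endothelial, −0.0245 for neutrophil and 0.27 for dystrophin complex genes. The endothelial median was 0.0097 with a dye term and between −0.1676 (without normal 3) and 0.16 (without normal 1), where the sex-linked median was −0.18. With both channels bright the medians were 0.19 for slow fibre and 0.0751 for position genes, and without saturated probes 0.19 for slow fibre and −0.0355 for glycolysis. The cause was not tested. No paired analysis was possible because the comparison has no second group with shared replicate numbers. UTRN, MSTN and JAG1 were too dim to test.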
